A study of Homo sapiens with 16 samples.

Results

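Metallothioneins and the genes tied to the zinc sensor MTF1 were followed in a human lung carcinoma line with and without a p53 mutant, after exposure to the compound MS78. The 8 genes were chosen by name, with earlier results of these data known. They are the metallothioneins MT1E, MT1F, MT1G, MT1M, MT1X and MT2A, the transcription factor MTF1 and the zinc exporter SLC30A1, out of 56865 genes counted. Of the 8, only MT1X, MT2A, MTF1 and SLC30A1 had enough reads to be among the 15687 genes tested.

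The libraries were made from poly(A) RNA of NCI-H1299, a p53-null line of non-small cell lung carcinoma, called Null here, and from NCI-H1299 with stable expression of p53 Y220C, called Y220C here. Each line received 10 µM MS78 or its vehicle DMSO for 24 h, which gave the groups Y220C MS78, Y220C DMSO, Null MS78 and Null DMSO with 4 libraries each. MS78 was designed as a linker between mutant p53 Y220C and the acetyltransferases p300 and CBP. The Y220C line was grown in 500 µg/mL G418 and the Null line was not, so that the transgene, the selection drug and the line cannot be told apart in a comparison of the lines, and the labels do not state if the Y220C line is 1 clone. The labels also do not state if replicates were separate cultures, so p-values measure only the spread between these samples.

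Metallothioneins are small cysteine-rich proteins that hold zinc, copper and cadmium ions. MTF1 is a zinc-finger protein that enters the nucleus when free zinc rises and binds metal response elements, short DNA motifs that lie in several copies before the metallothionein genes. SLC30A1, also called ZnT1, moves zinc out of the cell through the plasma membrane and is a known MTF1 target, so that metallothionein RNA and SLC30A1 RNA are often read together as a response to zinc.

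The libraries held 20.3 M to 27.7 M estimated reads. Of 6 epithelial markers KRT8 and KRT18 averaged 173 reads per 1000000 (CPM) or more in every group, as did the mesenchymal marker VIM, whereas KRT7, KRT19, EPCAM and CDH1 averaged at most 1.77 CPM in any group. With MS78 in Y220C cells KRT8 fell by 0.44, KRT18 by 0.38 and VIM by 0.41 on the log2 scale. Of the 3 mesenchymal markers listed, CDH2 and FN1 did not pass the test there, at 0.06 (SE 0.05) and -0.01 (SE 0.07). CDH2 averaged 44 to 49.8 CPM over the groups. FN1 averaged 37.2 CPM in Y220C MS78 and 37.3 CPM in Y220C DMSO, against 126 CPM in Null MS78 and in Null DMSO. Across groups, 8 libraries (replicate 1 of both DMSO groups and replicates 2 to 4 of both MS78 groups) held 55 to 99 reads of the leukocyte gene PTPRC and 375 to 485 of GZMB, against 0 to 1 of each in the other 8. Of 12 leukocyte markers, 10 were higher in every one of these 8 libraries than in any of the others, and the sum of the 12 was 57.1 to 140.3 CPM in the 8 libraries against 2.41 to 10.2 CPM in the others. The sums ranged over 2.41 to 140.3 CPM in Y220C MS78, 3.15 to 57.1 CPM in Y220C DMSO, 7.43 to 132.5 CPM in Null MS78 and 9.18 to 62.3 CPM in Null DMSO. Because the 2 library sets are unevenly spread over MS78 and DMSO, results are also given within each set. For MS78 against DMSO within a set, 1 of the arms compared is a single library. For the lines, both arms are single libraries under DMSO in the set with PTPRC reads and under MS78 in the set without. A single library is assumed to vary like the others.

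The 6 metallothionein members lie in 1 cluster on chromosome 16 (GENCODE 29, GRCh38), with MT2A at 56608199-56609497, MT1E at 56625475-56627112, MT1M at 56632233-56633986, MT1F at 56657694-56660698, MT1G at 56666731-56668065 and MT1X at 56682424-56684196. MT1G is on the minus strand and the others are on the plus strand. SLC30A1, at 211571568-211578742, and MTF1, at 37809567-37859620, are both on the minus strand of chromosome 1. The 250 bases before the RefSeq start (GRCh38.p14) were searched for the 7-base core of the metal response element, spelled TGCACNC or TGCGCNC, on both strands, and windows for MT1E, MT1F, MT1G and MT1M were not used here. The windows of the 3 members with a core match are shown 5′ to 3′ in the direction of the gene. Each core match is in capitals, because MTF1 is known to bind metal response elements. They span chr16:56682220-56682469 (plus strand) for MT1X, chr16:56608334-56608583 (plus strand) for MT2A and chr1:211579162-211579411 (minus strand) for SLC30A1.
MT1X: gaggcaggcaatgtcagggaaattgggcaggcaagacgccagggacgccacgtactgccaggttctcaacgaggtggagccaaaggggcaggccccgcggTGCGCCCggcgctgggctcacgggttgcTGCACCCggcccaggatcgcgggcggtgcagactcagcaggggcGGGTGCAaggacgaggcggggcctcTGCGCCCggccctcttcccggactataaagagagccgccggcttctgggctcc
MT2A: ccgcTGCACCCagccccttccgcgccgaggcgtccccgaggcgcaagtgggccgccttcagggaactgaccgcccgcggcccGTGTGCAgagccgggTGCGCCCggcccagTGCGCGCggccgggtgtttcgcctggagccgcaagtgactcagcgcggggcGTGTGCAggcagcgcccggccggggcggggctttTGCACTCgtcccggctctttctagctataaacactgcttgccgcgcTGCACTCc
SLC30A1: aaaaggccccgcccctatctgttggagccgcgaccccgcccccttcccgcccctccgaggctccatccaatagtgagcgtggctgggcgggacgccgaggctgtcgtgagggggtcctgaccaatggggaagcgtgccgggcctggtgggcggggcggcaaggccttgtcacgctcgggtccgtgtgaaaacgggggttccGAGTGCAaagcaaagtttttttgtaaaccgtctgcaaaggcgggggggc

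MT1X held 4 core matches, 3 on the gene's strand and 1 on the other, and MT2A held 7, of which 5 were on the gene's strand and 2 on the other. SLC30A1 held 1, on the strand opposite to the gene and 43 to 49 bases before the RefSeq start, while MTF1's own window held 0. The GENCODE gene used for counting SLC30A1 starts downstream of that, at 211578742, so the match lies further from the GENCODE start. The MT2A window lies inside its GENCODE gene, which starts at 56608199. Windows before the GENCODE starts were not searched. No matches overlapped. Among 35116 promoter windows of the same length, 24.8% held at least 1 match, 0.37% held at least 4 and 0.0313% held at least 7, so that 1 match is common and the counts of MT1X and MT2A are not. A match is only a run of letters, and no binding was measured.

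MT1X was the metallothionein whose RNA moved most. It had 2809, 2653, 2097 and 1861 reads in Y220C MS78, against 778, 767, 861 and 977 in Y220C DMSO. In Null cells it had 1159, 999, 904 and 746 reads with MS78, against 711, 651, 833 and 952 with DMSO. Every Y220C MS78 library lay above the 12 others, and the other 3 groups overlapped. Scaled to library size, MT1X averaged 118 ± 19.6 CPM in Y220C MS78 and 38.6 ± 4.35 CPM in Y220C DMSO (SD, n = 4 each), a log2 fold change of 1.61 (SE 0.11), which is 3.06-fold with a 95% interval of 2.6 to 3.59. The adjusted p was 1.82e-10 in edgeR's quasi-likelihood test over all genes, which is the test behind every adjusted p below. Within the libraries that held PTPRC reads the log2 change was 1.74 (SE 0.13), and within those that did not it was 1.78 (SE 0.12), so that it was as large in both sets.

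MT2A, the metallothionein with the most reads, moved less and with more spread. It had 5685, 5596, 4175 and 3602 reads in Y220C MS78, against 3762, 3111, 3946 and 4513 in Y220C DMSO. In Null cells it had 5320, 5268, 4609 and 3792 reads with MS78, against 4460, 4143, 5220 and 5682 with DMSO. No group stood clear of its neighbours: replicates 1 and 2 of Y220C MS78 (279 and 272 CPM) were above every other library, while replicates 3 and 4 (218 and 183 CPM) lay within the range of the Null DMSO libraries (179 to 225 CPM). The means were 238 ± 46 CPM in Y220C MS78 and 174 ± 22.8 CPM in Y220C DMSO (SD, n = 4 each), and the log2 fold change was 0.45 (SE 0.11, adjusted p = 0.00201). It was 0.48 (SE 0.14) within the libraries with PTPRC reads and 0.65 (SE 0.14) within those without, and counts rescaled from TPM within these sets missed the threshold (adjusted p = 0.0701 with and 0.0526 without PTPRC reads).

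MT1X therefore took a larger part of the metallothionein RNA in Y220C MS78. It made up 32.2% to 34.1% of the reads of the 6 metallothioneins there, against 17.1% to 19.8% in Y220C DMSO, 15.9% to 17.9% in Null MS78 and 13.6% to 14.4% in Null DMSO. Y220C MS78 lay clear of every other group in this share, and its 4 libraries spanned less than 2 percentage points although their metallothionein totals ranged over 5464 to 8495 reads. Null DMSO, the lowest in this share, also lay clear of every other group, whereas Null MS78 and Y220C DMSO overlapped. The 6 genes together averaged 356 ± 65.4 CPM in Y220C MS78, 213 ± 26.6 CPM in Y220C DMSO, 232 ± 14 CPM in Null MS78 and 237 ± 27.4 CPM in Null DMSO (SD, n = 4 each).

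Per length, which is the scale for setting genes beside each other, MT1X averaged 801 ± 98.4 transcripts per 1000000 (TPM) and MT2A 634 ± 95.9 TPM in Y220C MS78. In Y220C DMSO they averaged 281 ± 42 and 483 ± 73.7 TPM. The ratio of MT1X TPM to MT2A TPM was 1.21 to 1.31 in Y220C MS78, 0.532 to 0.633 in Y220C DMSO, 0.483 to 0.567 in Null MS78 and 0.388 to 0.435 in Null DMSO, so MT1X exceeded MT2A only in Y220C MS78 among the 4 groups. The ratio depends on the transcript models: MT2A-201, which took over 99% of the MT2A reads, starts 385 bases before the RefSeq start, and its 786 annotated bases lower the MT2A TPM if the RNA begins at the later start. These transcripts are also short against the sequenced fragments, so their effective length varied by library, over 151 to 165 bases of the 450 of MT1X-201 in Y220C MS78, 154 to 165 in Y220C DMSO, 163 to 171 in Null MS78 and 164 to 177 in Null DMSO. With counts rescaled from TPM, which corrects for this, the MT1X change by MS78 in Y220C cells was 1.55 on the log2 scale (SE 0.13) and that of MT2A was 0.43 (SE 0.12).

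The remaining metallothionein members were nearly or wholly silent. MT1M had 0 reads in each of the 16 libraries, MT1G at most 1, MT1F at most 3 and MT1E at most 4. The 4 genes together had 1, 1, 3 and 1 reads in Y220C MS78 and 3, 0, 0 and 0 in Y220C DMSO, against 0, 2, 4 and 5 in Null MS78 and 0, 3, 2 and 0 in Null DMSO. None passed the filter on low counts, and a count of 0 allows up to 3 reads, or 0.108 to 0.148 CPM, per library (counting error only). The other 7 metallothionein genes of the annotation (MT1A, MT1B, MT1H, MT1L, MT1HL1, MT3 and MT4) had at most 3 reads in a library, and 8 metallothionein pseudogenes had at most 2. All but these few metallothionein reads were assigned to MT1X and MT2A, at opposite ends of the cluster.

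The family's sequences are close enough to matter for that assignment. Of the 420 distinct 31-base words of MT1X-201, 48.1% also occur in transcripts of other genes, against 23.2% for the longest MT1E transcript, 21.6% for MT1G, 18.8% for MT1M, 2.27% for MT1F, 12.2% for MT2A-201, 1.86% for MTF1-201 and 0% for SLC30A1-201. The MT1F transcript used here has 1573 bases and is annotated as retaining an intron, so its share is not on a par with those of the coding transcripts. The gene sharing the most words with MT1X, the noncoding AC026461.1, holds 136 of the 202 shared words of MT1X-201. The 48.1% is therefore not a measure of likeness to other metallothioneins alone. AC026461.1 overlaps MT1X on the same strand (chromosome 16, 56682470-56687807) and was listed at 0 reads in every library. The quantifier divides reads among such transcripts, so the split between MT1X and its relatives is uncertain, while SLC30A1 does not share this limit.

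**Figure D1:**
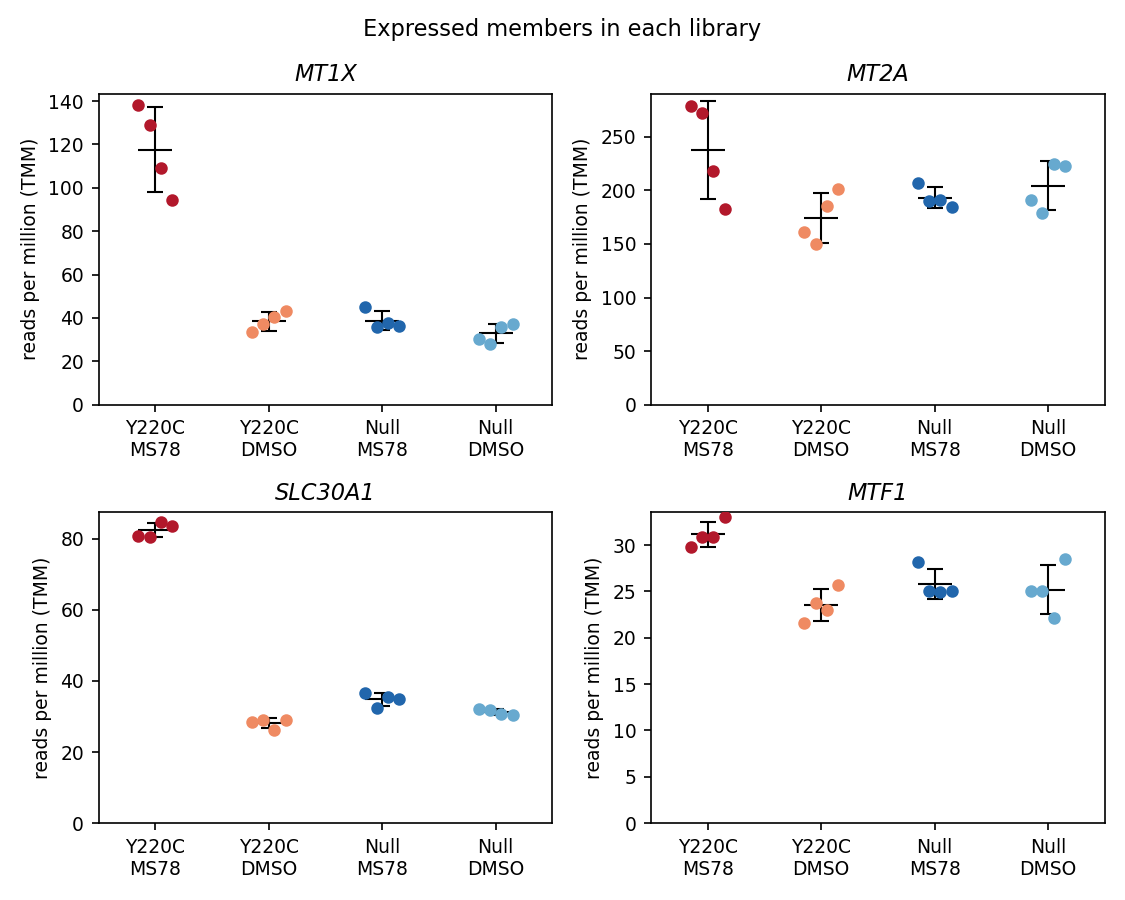
CPM, scaled by TMM size factors, of MT1X, MT2A, SLC30A1 and MTF1 in each of the 16 libraries, with points for libraries and bars for mean ± SD of 4. MT1X (94.4 to 138 CPM) and SLC30A1 (80.6 to 84.6 CPM) in Y220C MS78 stand clear of every other library, whereas MT2A overlaps between groups.

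SLC30A1 moved nearly as far as MT1X and with less spread. The exporter had 1645, 1655, 1622 and 1647 reads in Y220C MS78, against 664, 598, 559 and 653 in Y220C DMSO. In Null cells it had 942, 898, 855 and 722 reads with MS78, against 746, 734, 709 and 772 with DMSO. In CPM the 4 groups did not overlap: 82.4 ± 2.01 in Y220C MS78, 28.1 ± 1.29 in Y220C DMSO, 34.8 ± 1.82 in Null MS78 and 31.1 ± 0.83 in Null DMSO (SD, n = 4 each). In TPM (18.4 ± 0.851 in Y220C MS78, 6.48 ± 0.308 in Y220C DMSO, 8.14 ± 0.365 in Null MS78 and 7.45 ± 0.242 in Null DMSO), Null MS78 and Null DMSO overlapped and the other neighbours did not. The log2 fold change with MS78 in Y220C cells was 1.55 (SE 0.05), or 2.92-fold with a 95% interval of 2.74 to 3.12 (adjusted p = 1.27e-16). It was 1.55 (SE 0.08) within the libraries with PTPRC reads and 1.53 (SE 0.08) within those without.

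MTF1 RNA, which encodes the zinc sensor itself, rose by less. It had 606, 634, 593 and 650 reads in Y220C MS78, against 505, 492, 490 and 578 in Y220C DMSO. In Null cells it had 725, 697, 600 and 515 reads with MS78, against 584, 581, 514 and 726 with DMSO. In CPM the Y220C MS78 libraries (29.8 to 33) lay above those of the other groups (21.6 to 28.5), and the change against Y220C DMSO was 0.40 on the log2 scale (SE 0.07, adjusted p = 6.13e-05). In TPM the means were 4.67 ± 0.346 in Y220C MS78, 3.64 ± 0.288 in Y220C DMSO, 4.49 ± 0.806 in Null MS78 and 4.05 ± 0.431 in Null DMSO (SD, n = 4 each), and Y220C MS78 overlapped Null MS78 and Null DMSO. Within the libraries with PTPRC reads the change in Y220C cells was 0.55 (SE 0.08), and within those without it was 0.30 (SE 0.13) and missed the threshold (adjusted p = 0.122).

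Counted together, 4 of the 4 members tested rose with MS78 in Y220C cells, where 24.9% of all genes tested rose and 23.6% fell. Their median log2 change was 1.00, against -0.01 over all genes tested. By log2 change, 1.63% of all genes lay above MT1X and 1.72% above SLC30A1, but 11.6% lay above MT2A and 13.5% above MTF1.

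In Null cells MS78 had little effect on the same genes. SLC30A1 rose by 0.16 on the log2 scale (SE 0.05, adjusted p = 0.0112), to 34.8 CPM with MS78 against 31.1 CPM with DMSO, a 1.12-fold change. The other 3 did not pass the test, with log2 changes of 0.23 for MT1X (SE 0.12, adjusted p = 0.159), -0.08 for MT2A (SE 0.11, adjusted p = 0.627) and 0.03 for MTF1 (SE 0.07, adjusted p = 0.778). Over all genes tested 14.8% rose and 13.3% fell in this comparison. Neither set of libraries kept the SLC30A1 call, with 0.08 (SE 0.08, adjusted p = 0.562) among those with PTPRC reads and 0.25 (SE 0.09, adjusted p = 0.142) among those without. A term for the PTPRC libraries raised the MT1X value to 0.36 (adjusted p = 0.00698), and the 1 Null MS78 library without PTPRC reads, replicate 1, was at 45.1 CPM of MT1X against 36 to 37.5 CPM in the other 3.

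The difference between the responses of the lines was tested directly as the interaction of line and treatment. All 4 members tested responded more strongly in Y220C cells, where 14.4% of all genes tested had a higher and 12.4% a lower response. The log2 difference was 1.39 (SE 0.06, adjusted p = 2.65e-12) for SLC30A1 and 1.38 (SE 0.16, adjusted p = 2.38e-06) for MT1X, which only 1.02% and 1.04% of all genes exceeded. For MT2A it was 0.53 (SE 0.16, adjusted p = 0.0144), and it missed the threshold among libraries with PTPRC reads (0.52, adjusted p = 0.0964) and among those without (0.66, adjusted p = 0.138). For MTF1 it was 0.37 (SE 0.10, adjusted p = 0.00718), and counts rescaled from TPM gave 0.21 (adjusted p = 0.38). Among libraries without PTPRC reads the MTF1 value was 0.15 (adjusted p = 0.75), and with rescaled counts in that set MTF1 was at -0.22 (adjusted p = 0.742) and MT1X at 1.21 (adjusted p = 0.106).

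Without MS78 the lines were near each other. SLC30A1 was lower in Y220C DMSO than in Null DMSO by a small margin, with a log2 change of -0.14 (SE 0.05, adjusted p = 0.0154), and 25.5% of all genes tested were lower and 24.7% higher. This call was lost without Null DMSO replicate 1 (adjusted p = 0.0519), without Y220C DMSO replicate 3 (adjusted p = 0.0767) and among libraries without PTPRC reads (adjusted p = 0.13). The set with PTPRC reads leaves 1 DMSO library per line, so it cannot decide this call. MT1X was at 0.22 (SE 0.12, adjusted p = 0.122), MT2A at -0.23 (SE 0.11, adjusted p = 0.0891) and MTF1 at -0.10 (SE 0.07, adjusted p = 0.243). MT1X passed the threshold with a term for the PTPRC libraries (adjusted p = 0.042), and MT2A when Null DMSO replicate 2 (adjusted p = 0.0465), Y220C DMSO replicate 4 (0.0354) or Y220C MS78 replicate 4 (0.0432) was left out. In all, MT1X passed in 2 of 28 alternatives and MT2A in 5 of 28. Their log2 changes over the 28 were 0.12 to 0.34 for MT1X and -0.3 to -0.17 for MT2A.

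Under MS78, 4 of 4 members tested were higher in Y220C than in Null cells, where 30.7% of all genes tested were higher and 31.2% lower. The log2 changes were 1.61 for MT1X (SE 0.11, adjusted p = 1.01e-10) and 1.24 for SLC30A1 (SE 0.04, adjusted p = 2.69e-15). They were 0.30 for MT2A (SE 0.11, adjusted p = 0.0211) and 0.27 for MTF1 (SE 0.07, adjusted p = 0.00172). The MT2A call was lost without Null MS78 replicate 4 (adjusted p = 0.054), Y220C MS78 replicate 1 (0.0976) or Y220C MS78 replicate 2 (0.0895). The set without PTPRC reads leaves 1 MS78 library per line, so it cannot decide the calls of this comparison. With counts rescaled from TPM, MTF1 was at 0.10 (adjusted p = 0.451). In the set without PTPRC reads it was at 0.09, and with rescaled counts in that set at -0.29. This comparison shares the Y220C MS78 libraries with the first, so the 2 are not independent.

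**Figure D2:**
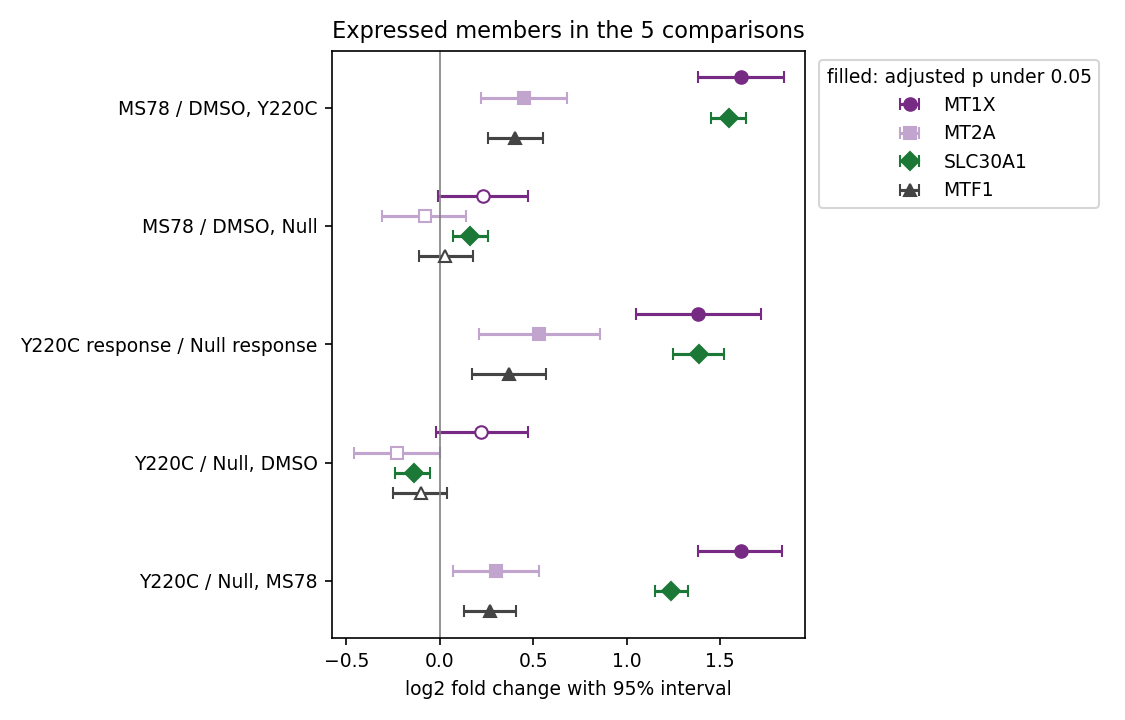
Log2 fold change of each expressed member with its 95% interval in the 5 comparisons, with filled symbols where the adjusted p was under 0.05. MT1X and SLC30A1 sit between 1.24 and 1.61 wherever Y220C MS78 enters, MT2A and MTF1 between 0.27 and 0.53, and the 4 lie within 0.23 of 0 in the other comparisons.

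A change within MT1X accompanied its rise. The annotated transcript MT1X-203, which GENCODE classes as a target of nonsense-mediated decay, the pathway that degrades RNA with an early stop codon, had 249.4, 252.3, 275.6 and 195.8 reads in Y220C MS78, against 13.8, 11.2, 13.3 and 23.5 in Y220C DMSO. In Null cells it had 15.5, 11.4, 6.1 and 5.2 reads with MS78, against 11.8, 11.4, 11.5 and 6.3 with DMSO. It made up 10.5% ± 1.88 of MT1X reads in Y220C MS78, 1.79% ± 0.431 in Y220C DMSO, 0.962% ± 0.331 in Null MS78 and 1.36% ± 0.494 in Null DMSO (SD, n = 4 each), and Y220C MS78 alone stood clear of the others. This transcript was picked after its values were seen.

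MT1X-203 differs from the coding transcript MT1X-201 in the donor site that ends exon 2. Exon 2 has 222 bases in MT1X-203 and 66 in MT1X-201, so that 156 bases of the intron stay in the RNA and bring a stop codon at chr16:56683275-56683277. The donor sites are shown for comparison, 5′ to 3′ on the plus strand (GRCh38), with the first 6 bases of the intron in capitals, and they lie at chr16:56683219-56683242 and chr16:56683375-56683398.
MT1X-201 donor: cctgcaagaagaGTGAGTgcaggg
MT1X-203 donor: ccttaaaaatggGTGAGTcccagc

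Both donors have the same first 6 intron bases. Tested over 47159 transcripts, MT1X-203 rose with MS78 in Y220C cells by 4.10 on the log2 scale (SE 0.34, adjusted p = 7.08e-07), against 1.47 for MT1X-201 (SE 0.13, adjusted p = 1.72e-06). Of all transcripts tested 7.75% rose, and of the 3666 classed as decay targets 5.24% rose. Of these 3666, whether they passed the test or not, 38 had a larger log2 change than MT1X-203. In Null cells the MT1X-203 change with MS78 was -0.14 (SE 0.34, adjusted p = 0.966), and the interaction was 4.24 (SE 0.47, adjusted p = 7.99e-05). In the libraries without PTPRC reads, where each MS78 arm is 1 library, the interaction missed the threshold at 3.37 (adjusted p = 0.341). The retained-intron transcript MT1X-204, which also contains the 156 bases, had 10.5 to 25.1 reads in Y220C MS78 and 3 to 11.3 in Y220C DMSO. The tables divide reads between transcripts by a model and hold no junction reads, so use of the donor itself was not measured. MT2A-201 held 99.4% to 99.7% of MT2A reads in Y220C MS78 and 99.3% to 99.5% in Y220C DMSO, with no such shift.

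**Figure D3:**
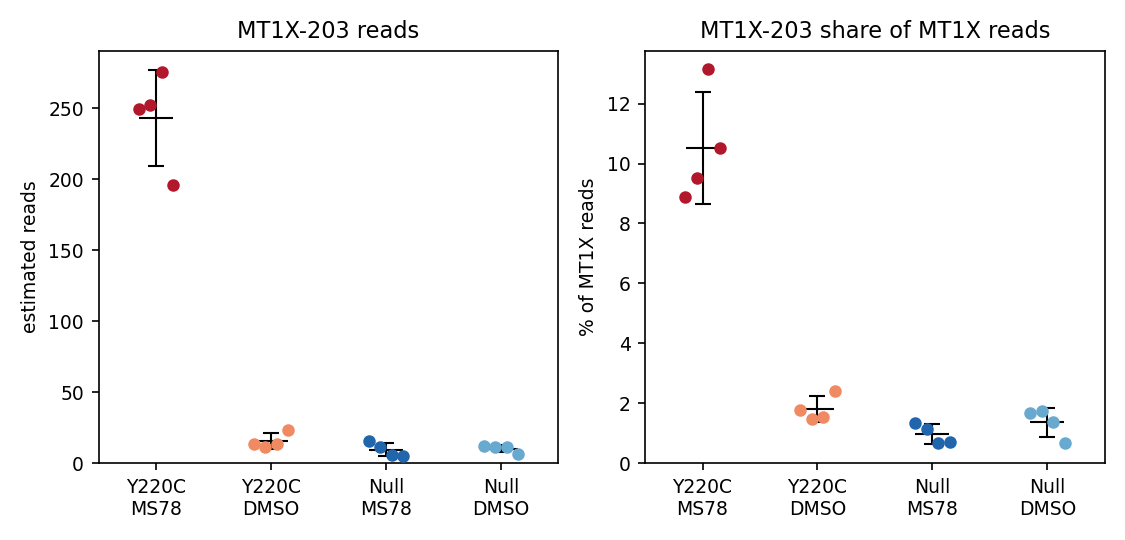
Estimated reads of MT1X-203 (left) and its share of all MT1X reads in percent (right) by library, with points for libraries and bars for mean ± SD of 4. The 4 Y220C MS78 libraries hold 195.8 to 275.6 reads, and none of the others exceeds 23.5.

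The wider set of metal genes was read from lists by function. Of 9 other genes of the SLC30 family of zinc exporters, 6 were tested. With MS78 in Y220C cells 4 of these rose and 0 fell, against 24.9% and 23.6% of all genes tested, with a median log2 change of 0.28 (-0.01 over all genes). SLC30A5, which loads zinc into the secretory pathway, reached 123 ± 3.1 CPM in Y220C MS78 and 81.8 ± 5.25 CPM in Y220C DMSO (log2 change 0.59, SE 0.04). SLC30A7, which serves the Golgi, rose by 0.58 (SE 0.06) and SLC30A4 by 0.31 (SE 0.09). In Null cells 0 of the 6 passed the test (median 0.03), where 14.8% of all genes tested rose and 13.3% fell. The interaction was positive and past the threshold for 3 (SLC30A5, SLC30A7 and SLC30A6), against 14.4% of all genes. SLC30A3 differed by line instead: it had 12 to 35 reads in Y220C MS78 and 18 to 30 in Y220C DMSO, against 1 to 4 in Null MS78 and 2 to 8 in Null DMSO (log2 change under DMSO 2.63, SE 0.43). In this family SLC30A2 and SLC30A8 were at 0 in every library and SLC30A10 had at most 4 reads.

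Zinc importers of the SLC39 family moved in both directions. Of 14 genes 11 were tested, and with MS78 in Y220C cells 7 rose and 3 fell (median 0.25), against 24.9% and 23.6% of all genes tested. The plasma membrane importer SLC39A8 was at 105 ± 3.59 CPM in Y220C MS78 and 54.6 ± 1.83 CPM in Y220C DMSO, and also higher in Null MS78 (111 ± 4.1 CPM) than in Null DMSO (74.4 ± 2.64 CPM). Its log2 changes were 0.94 (SE 0.04) in Y220C cells and 0.58 (SE 0.04) in Null cells. SLC39A7, which releases zinc from the endoplasmic reticulum and Golgi, rose by 0.74 (SE 0.04) in Y220C cells, and SLC39A13 by 0.57 (SE 0.05). The changes in Null cells were 0.13 (SE 0.04) for SLC39A7 and 0.29 (SE 0.06) for SLC39A13. SLC39A14 went in opposite directions: 120 ± 2.3 CPM in Y220C MS78 against 93.7 ± 1.77 CPM in Y220C DMSO, and 90.2 ± 2.58 CPM in Null MS78 against 118 ± 4.26 CPM in Null DMSO (interaction 0.74, SE 0.05, adjusted p = 1.07e-09). In Null cells 4 importers rose and 2 fell, against 14.8% and 13.3% of all genes.

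Copper genes, 14 that include chaperones, transporters and reductases, showed no shared direction. In Y220C cells 4 rose and 3 fell with MS78 (median 0.04), and in Null cells 2 rose and 2 fell (median 0.04). These counts are near the shares of all genes that rose and fell, 24.9% and 23.6% in Y220C cells and 14.8% and 13.3% in Null cells. The copper exporter ATP7A rose by 0.39 (SE 0.07) in Y220C cells and by 0.20 (SE 0.06) in Null cells. Its interaction missed the threshold (0.19, adjusted p = 0.147). CCS, the chaperone of superoxide dismutase, fell by 0.38 on the log2 scale (SE 0.08) in Y220C cells and was at 0.07 (SE 0.07) in Null cells. SLC31A1, the copper importer, was at 117 ± 3.4 CPM in Y220C MS78 and 101 ± 2.02 CPM in Y220C DMSO, against 60.2 ± 3.45 CPM in Null MS78 and 72.9 ± 2.44 CPM in Null DMSO (interaction 0.50, SE 0.06).

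The list called MTF1-linked here holds genes linked to MTF1 or responsive to metals in earlier work, and several also answer to oxidative stress. It included HMOX1. With MS78 in Y220C cells the change of HMOX1 was the largest among the members and the tested genes of the lists of metal genes. The median of these MTF1-linked genes was below that of the members (1.00). Of 7 tested, 6 rose and 1 fell with MS78 in Y220C cells (median 0.49), and 2 rose and 0 fell in Null cells (median 0.05). Of all genes tested 24.9% rose and 23.6% fell in Y220C cells, and 14.8% rose and 13.3% fell in Null cells. HMOX1, heme oxygenase 1, was at 186 ± 7.06 CPM in Y220C MS78 and 33.9 ± 2.52 CPM in Y220C DMSO, a log2 change of 2.45 (SE 0.05), and at 30.4 ± 0.839 CPM in Null MS78 and 20.7 ± 0.331 CPM in Null DMSO. PGF, placental growth factor, rose by 1.63 (SE 0.11) in Y220C cells and TXNRD1, thioredoxin reductase 1, by 1.14 (SE 0.04), whereas SLC40A1, the iron exporter, fell by 0.40 on the log2 scale (SE 0.11). TXNRD1 also rose in Null cells, by 0.28 (SE 0.04), while PGF was at 0.01 (SE 0.11) and SLC40A1 at 0.05 (SE 0.11) there. The interaction was positive and past the threshold for 5 of the 7 and negative for 1 (14.4% and 12.4% of all genes), with 1.90 (SE 0.07) for HMOX1 and 1.62 (SE 0.15) for PGF. MTF1 protein, its location and zinc itself were not measured.

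**Figure D4:**
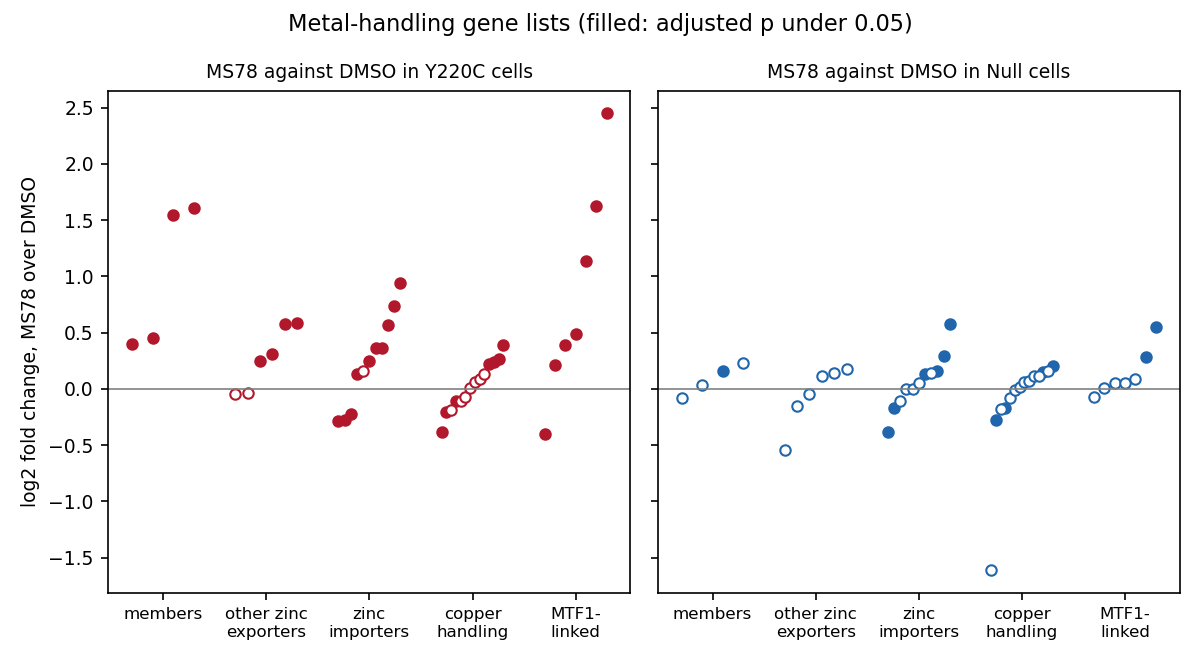
Log2 fold change with MS78 in Y220C cells (left) and in Null cells (right) for the 4 members tested and for the tested genes of 4 lists, 1 point per gene, filled where the adjusted p was under 0.05. In Y220C cells the MTF1-linked genes reach 2.45 (HMOX1) and the members 1.61 (MT1X), whereas in Null cells the highest value is 0.58 (SLC39A8).

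Likeness in pattern was taken as the mean absolute difference of centred log2 CPM over the 16 libraries. Among 12227 protein-coding genes of at least 1 CPM, the 5 nearest to the summed metallothioneins were EPC1 (0.101), AGPAT5 (0.109), BMT2 (0.11), ARFIP2 (0.115) and VPS37A (0.119). SLC30A1 ranked 5445 on that list (0.287). MT2A made up 65.9% to 86.4% of the summed reads by library. From Y220C DMSO to Y220C MS78 the means rose from 174 to 238 CPM for MT2A and from 38.6 to 118 CPM for MT1X. Both genes therefore shape the sum, and this rank does not set SLC30A1 beside either of them alone. No such list was made for MT1X alone. Nearest to SLC30A1 were JMJD6 (0.093), IFIT1 (0.108), DNAJB2 (0.115), TNFAIP3 (0.117) and HSP90AA1 (0.118). HSP90AA1, for one, averaged 8750 CPM in Y220C MS78, 3920 in Y220C DMSO, 4110 in Null MS78 and 3620 in Null DMSO. These are descriptions over libraries that share 4 conditions, and they carry no test.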

How the data were processed

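The 16 libraries were grouped by line and treatment from the labels. Estimated counts of reads per transcript were made by the authors and are not normalized, per the file headers. The authors' TPM values are scaled to effective transcript length, per the file headers, which also hold the length and effective length in other columns as deposited. FastQC 0.11.8 and hg38 are named in the submitters' processing notes, while the sources used here do not name the quantifier, its version or its use of strand.

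Of 197653 transcripts, 193348 matched GENCODE 29 and were summed into 56865 genes and rounded. Genes were tested with edgeR 4.0.16 (filterByExpr, TMM, quasi-likelihood F-test, 1 fit of 16 libraries, 12 residual degrees of freedom), with Benjamini-Hochberg adjustment over all genes tested and a threshold of 0.05, and the code was tested on simulated data. DESeq2 1.42.0, other filters and scalings, left-out libraries, library sets and the replicate block were alternatives. Transcripts were tested in the same way. The members and lists were chosen with earlier results of these data known. Named were the 8 members, up to 3 called genes per list with the largest log2 change and at least 1 CPM, and the 5 genes nearest in pattern. SLC40A1 and the transcripts were picked after their values were seen. For Y220C against Null under MS78, same-numbered libraries deviated together (correlations of 0.53, 0.15, 0.2 and 0.17), and blocking on the number changed no member's call. The floor for a count of 0 covers counting error only, while the intervals of fold changes include the spread between libraries. The reads of the targeted gene are not reported here.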

Additional observations from a re-analysis of the deposited data

Results flagged for a closer look

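The response to MS78 differed between the lines, by the test of the difference itself, for each of the 4 members tested. The log2 difference of Y220C from Null was 1.39 for SLC30A1, 1.38 for MT1X, 0.53 for MT2A and 0.37 for MTF1, and 4.24 for the transcript MT1X-203.

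Null MS78 replicate 1 stood far above the other 3 libraries of its group for MT1X, at 45.1 CPM against 36 to 37.5, and for MTF1, at 28.2 CPM against 24.9 to 25.1. These were 2 of 24 groups of 4 values examined, and chance gives about 1 in 20. This library is also the only one of its group without PTPRC reads, and whether the 2 facts are related was not tested.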

How the results depend on the processing

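MT1X and SLC30A1 kept their calls in the 2 comparisons of Y220C MS78 with Y220C DMSO and with Null MS78 under every alternative that was run, with log2 changes of 1.53 to 1.78 and 1.52 to 1.56 against Y220C DMSO. Their interactions also held (MT1X 1.21 to 1.5, SLC30A1 1.28 to 1.47), except that MT1X missed the threshold with TPM-rescaled counts within the libraries without PTPRC reads (1.21, adjusted p = 0.106). MT2A and MTF1 were the less stable members. Their change by MS78 in Y220C cells kept its direction, at 0.36 to 0.65 (adjusted p up to 0.0701) and 0.3 to 0.55 (adjusted p up to 0.234).

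Over all genes, the count past the threshold fell within the library sets, which hold fewer samples. Without PTPRC reads it was 3490 for MS78 in Y220C cells (main 7611), 1070 for MS78 in Null cells (4402), 411 for the interaction (4197) and 4184 for Y220C against Null under MS78 (9699). With PTPRC reads it was 2346 for MS78 in Null cells, 1870 for the interaction and 3817 for Y220C against Null under DMSO (7875). TPM-rescaled counts gave 2848 for MS78 in Null cells and 2751 for the interaction. TPM-rescaled counts within the sets, chosen after seeing the data, gave in turn 2968 (with) and 1888 (without) for MS78 in Y220C cells, 1062 and 510 for MS78 in Null cells, 428 and 106 for the interaction, 1583 and 4108 for the lines under DMSO, and 2237 (without) for the lines under MS78.

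Of the members, the count past the threshold for MS78 in Null cells (main 1) was 2 with no filter and with a term for the PTPRC libraries, and 0 within either set on both count scales. For the lines under DMSO (main 1) it was 3 with no filter, 2 with the PTPRC term and with only the compared groups, 0 within either set on both scales, and 0 to 2 when 1 library was left out. For MS78 in Y220C cells, the interaction and the lines under MS78 (main 4 each), it was 2 within libraries without PTPRC reads for the last 2, 2 with TPM-rescaled counts in that set for the first and last, and 2 (with) and 1 (without) for the interaction on that scale.

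Signs turned only for values that missed the threshold, or for MTF1. MT2A with MS78 in Null cells was at 0.01 with the PTPRC term and with TPM-rescaled counts in either set. MTF1 in that comparison was at -0.02 in the libraries with PTPRC reads and at -0.03 to 0.09 with 1 library left out. With TPM-rescaled counts in the libraries without PTPRC reads, MTF1 was at -0.22 for the interaction and -0.29 for the lines under MS78. MT1X-203 with MS78 in Null cells was at 0.67 in the libraries without PTPRC reads and at -0.48 to 0.02 with 1 library left out. The cause was not tested.

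With the replicate number as a block, 7442 genes passed for MS78 in Y220C cells, 4251 in Null cells, 4060 for the interaction, 7774 for the lines under DMSO and 9623 under MS78, and no member's call changed. Same-numbered libraries did not all deviate together outside the comparison under MS78, with correlations down to -0.5. Counts of 0 to 4 reads do not show whether MT1E, MT1F, MT1G and MT1M respond.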
